A study of Mus musculus with 6 samples.

Results

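Excitation-contraction coupling is the chain of events by which an action potential in the muscle membrane releases calcium from the sarcoplasmic reticulum and so starts contraction. It was followed here through 33 genes, chosen by name for their role in it, out of 52550 mouse genes in the deposited table. In skeletal muscle the voltage sensor in the T-tubule, an infolding of the cell membrane, acts directly on the calcium release channel of the sarcoplasmic reticulum. Pumps then return the calcium to the store, where it is held by binding proteins, and cytosolic buffers speed relaxation. The 33 genes were grouped by role into the voltage sensor, the release channel and its regulators, the scaffold of the junction between T-tubule and sarcoplasmic reticulum (the triad), the calcium store, reuptake, cytosolic buffers and calmodulin, calmodulin kinase II, and calcium entry through store-operated and mitochondrial channels.

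Muscle RNA was taken from male mice, 3 of them FLExDUX4 and 3 of them wild type (WT). FLExDUX4 mice are hemizygous for a human DUX4 transgene placed in inverted orientation between lox sites at the Rosa26 locus. DUX4 is the transcription factor whose expression in muscle causes facioscapulohumeral muscular dystrophy, and without Cre, as in these mice, the transgene is expressed only at a very low, leaky level. The DUX4 transcript itself was not analysed here. The labels give quadriceps muscle and an age of 13 weeks, whereas the methods of the study give triceps and 2 months. The libraries were made with QuantSeq, which reads the 3′ end of polyadenylated RNA, so that long transcripts do not collect more reads than short ones and levels of different genes can be set side by side without division by length.

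The counts used are totals over each genotype, 13110125 counts on mouse genes for FLExDUX4 and 18367364 for WT, with a further 220016 and 259913 on spike-in RNAs. The totals were scaled by TMM, a trimmed mean of ratios over genes, and are given as CPM (counts scaled to a common library size) or as the log2 ratio of FLExDUX4 to WT with a 95% Clopper-Pearson interval. That interval covers counting error only. The spread between mice is not in it, no test across replicates was run, and a single mouse can decide a ratio. A gene was called different when its ratio was at least 1.5-fold and its interval excluded a log2 ratio of 0. The muscle markers Myh4, at 29655 CPM in FLExDUX4 and 31026 CPM in WT, and Ckm, at 12196 and 11748 CPM, had the high levels of skeletal muscle fibers. In bulk muscle, fewer fibers of a type and less RNA per fiber cannot be told apart.

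All but Sln and Ryr3, that is 31 of the 33 genes, were within 1.5-fold between the genotypes. Sln was the only gene called higher in FLExDUX4, which is 3.03% of the 33, against 9.93% of the 13396 genes compared. Ryr3 was the only gene called lower, also 3.03%, against 10.2% of the 13396. All 33 genes passed the filter on low counts, which a gene can pass through either genotype alone. Ryr3, with 2 counts in FLExDUX4 and 21 in WT, passed only through WT, where it is high. Its call is therefore no support for a difference. Together they took 331353 counts in FLExDUX4 and 488412 in WT, or 2.53% and 2.66% of all counts on genes. The median log2 ratio was -0.07 over the 33 genes and -0.0010 over the 13396. Levels ran from 0.154 CPM for Ryr3 in FLExDUX4 to 8248 CPM for Atp2a1 in WT, and Atp2a1 and Pvalb together held 63.3% of the 33 genes' counts in FLExDUX4 and 62.2% in WT.

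**Figure D1:**
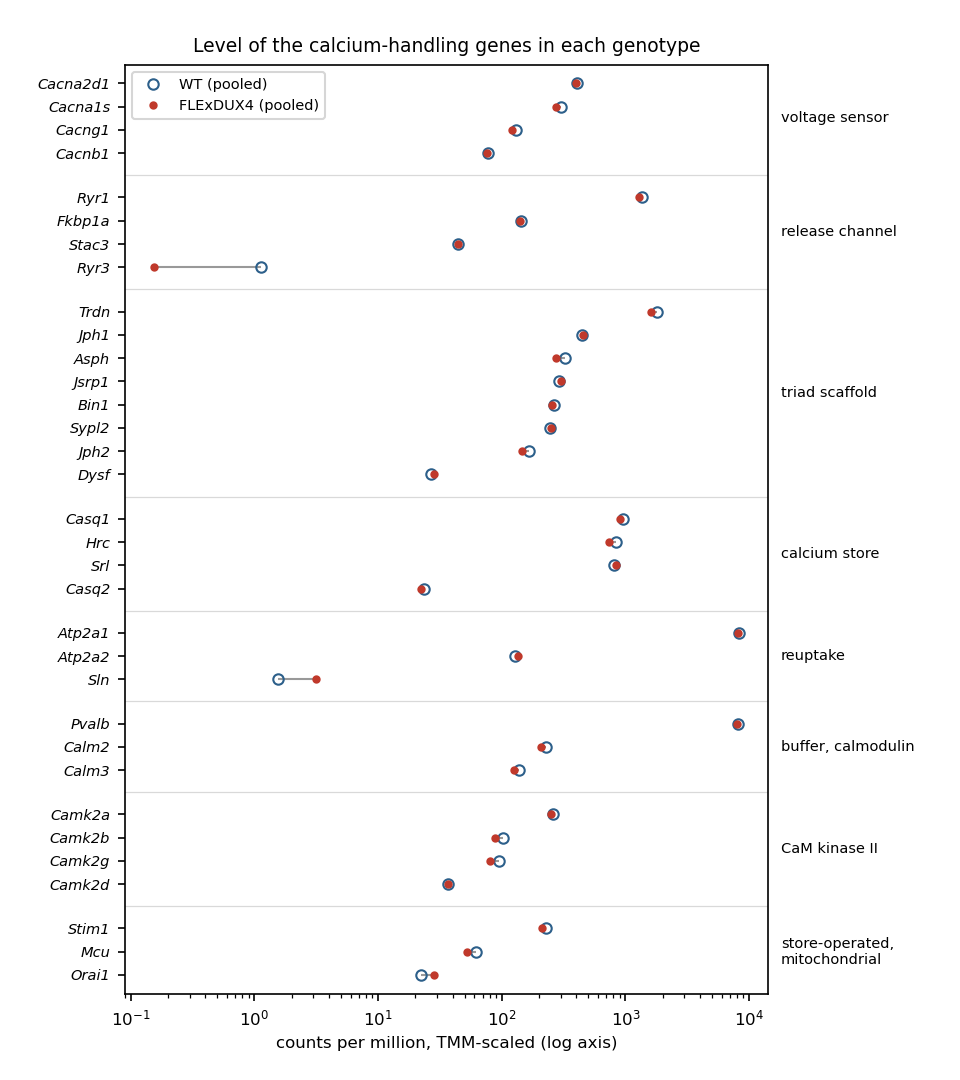
Level of each of the 33 genes in CPM (log axis, TMM-scaled) in the pooled WT (open circles) and pooled FLExDUX4 (filled circles) libraries, grouped by role. The circles lie close together for all genes but Ryr3 and Sln, both near the foot of the axis, and Atp2a1 and Pvalb stand highest, between 8028 and 8248 CPM.

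The voltage sensor is an L-type calcium channel that works in skeletal muscle chiefly as a sensor of the membrane potential. All 4 of its subunit genes had ratios just below 0, with a median of -0.06. Cacna1s encodes the pore-forming subunit and had 3539 counts in FLExDUX4 and 5573 in WT, which is 273 and 300.3 CPM. Its log2 ratio was -0.14 (interval -0.20 to -0.08), the lowest of the 4. Cacna2d1, which encodes the extracellular alpha-2/delta subunit, was the most abundant at 397 and 403 CPM, with a ratio of -0.02 (interval -0.08 to 0.03). Cacng1, the gamma subunit, had 122 and 130.3 CPM and a ratio of -0.10 (interval -0.19 to -0.0033). Cacnb1, the cytosolic beta subunit that brings the channel to the membrane, had 76.4 and 76.9 CPM and a ratio of -0.01 (interval -0.13 to 0.11). For the last of these the counts set a limit: a difference of more than 0.13 in either direction on the log2 scale lies outside the counting interval.

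The calcium release channel of skeletal muscle is the ryanodine receptor encoded by Ryr1 (chromosome 7 of GRCm38, 29003344 to 29125179). Ryr1 had 16828 counts in FLExDUX4 and 25289 in WT, or 1297 and 1363 CPM, a log2 ratio of -0.07 (interval -0.10 to -0.04). Per count of Cacna1s there were 4.76 counts of Ryr1 in FLExDUX4 (interval 4.59 to 4.93) and 4.54 in WT (interval 4.41 to 4.67), a ratio that does not depend on the scaling of the libraries. Stac3, an adaptor needed for the sensor to act on the channel, had 574 and 816 counts, or 44.2 and 44.0 CPM, and a ratio of 0.01 (interval -0.15 to 0.16). Fkbp1a encodes the small immunophilin bound to the release channel and had 139.7 and 142.5 CPM, with a ratio of -0.03 (interval -0.12 to 0.06).

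Ryr3 (chromosome 2, 112631355 to 113217096), a ryanodine receptor present mainly in immature muscle and in diaphragm, was nearly absent. It had 2 counts in FLExDUX4 and 21 in WT, a log2 ratio of -2.59 with an interval from -6.01 to -0.84. Its 3′ end lies over the gene Aven on the other strand, which had 125 and 151 counts. Ryr2, the cardiac receptor and no member of the 33, had 14 counts in FLExDUX4 and 3 in WT, a ratio of 2.57 (interval 0.90 to 5.18). Each of these 2 minor receptors passed the filter on low counts only through the genotype in which it is high. Their opposite directions are therefore no support for a difference. Ryr1 made up 99.9% of the counts of the 3 receptors in both genotypes. Among the 4096 genes with fewer than 100 counts in all, 38.0% were called in one direction or the other.

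**Figure D2:**
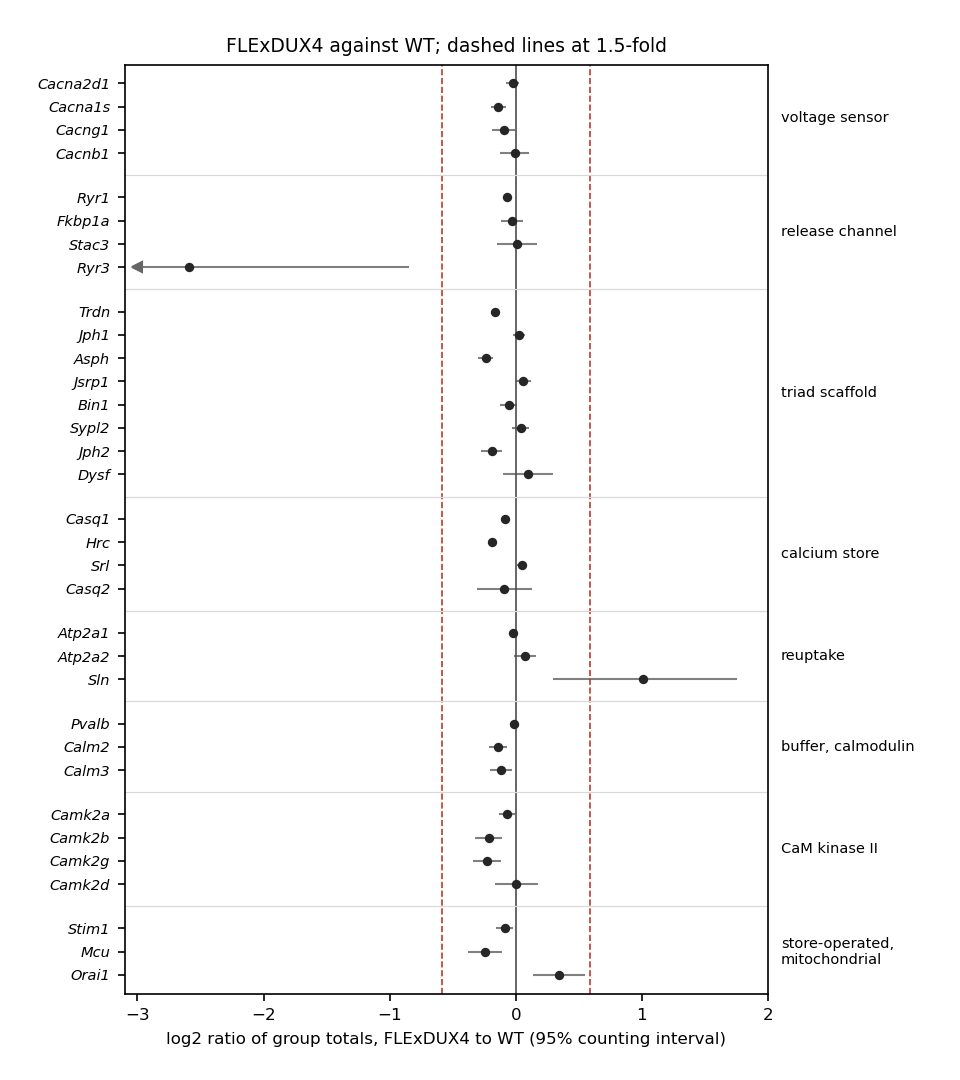
Log2 ratio of the group totals, FLExDUX4 to WT (x axis), for each of the 33 genes by role. Points are ratios and bars 95% counting intervals. The dashed lines mark 1.5-fold and the arrow shows that the Ryr3 interval runs on to -6.01. Sln and Ryr3 lie outside the dashed lines, and the other genes lie between -0.24 and 0.34.

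The proteins that hold the triad together and bind the release channel to the store were encoded by 8 genes, and 4 had a ratio above 0 and 4 below, with a median of -0.02. Trdn encodes triadin, which anchors calsequestrin to the release channel, and was the most abundant of the 8. It had 20961 counts in FLExDUX4 and 33662 in WT, or 1616 and 1814 CPM, a log2 ratio of -0.17 (interval -0.19 to -0.14). Per count of Ryr1 there were 1.246 counts of Trdn in FLExDUX4 (interval 1.22 to 1.27) and 1.33 in WT (interval 1.31 to 1.35). These intervals do not overlap, but they leave out the spread between mice, and no test over mice was run. Asph, whose products include junctin, a partner of triadin, had 275 and 324 CPM and a ratio of -0.24 (interval -0.30 to -0.18). This was the lowest ratio of the 8 and amounted to a level 1.18-fold lower in FLExDUX4. The count of Asph is that of the whole gene, and its products junctin, junctate and aspartyl hydroxylase were not separated.

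The junctophilins span the gap between T-tubule and sarcoplasmic reticulum. Jph1 had 454 CPM in FLExDUX4 and 447 in WT, with a log2 ratio of 0.02 (interval -0.03 to 0.07), and Jph2 had 145 and 166 CPM, with a ratio of -0.19 (interval -0.27 to -0.11). Jph1 accordingly took 75.7% of the junctophilin counts in FLExDUX4 (interval 74.8 to 76.7) and 72.9% in WT (interval 72.1 to 73.7). The intervals do not overlap, but no test over mice stands behind this difference. Jsrp1, which encodes the triad protein JP-45, had 299.8 and 288 CPM and a ratio of 0.06 (interval -0.0012 to 0.12). Sypl2, which encodes mitsugumin-29, had 252 and 245 CPM and a ratio of 0.04 (interval -0.03 to 0.10).

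Bin1 and Dysf serve the T-tubule itself. Bin1 encodes amphiphysin 2, which shapes the tubule, and had 254 CPM in FLExDUX4 and 264 in WT, a log2 ratio of -0.06 (interval -0.12 to 0.01). Dysf encodes dysferlin, a protein of membrane repair that is also found at T-tubules, and had 368 and 493 counts, or 28.4 and 26.6 CPM, with a log2 ratio of 0.10 (interval -0.10 to 0.29).

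Within the store, calsequestrin is the main calcium-binding protein of the sarcoplasmic reticulum. Casq1, the fast-fiber form, had 11715 counts in FLExDUX4 and 17755 in WT, or 903 and 957 CPM, a log2 ratio of -0.08 (interval -0.12 to -0.05). Casq2, the cardiac and slow-fiber form, had 288 and 439 counts, or 22.2 and 23.7 CPM, and a ratio of -0.09 (interval -0.31 to 0.13). The share of Casq2 in the calsequestrin counts was 2.40% in FLExDUX4 (interval 2.13 to 2.69) and 2.41% in WT (interval 2.19 to 2.65). Casq1 per Ryr1 was likewise close, at 0.696 in FLExDUX4 (interval 0.680 to 0.713) and 0.702 in WT (interval 0.689 to 0.716).

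The remaining store genes differed from each other. Hrc, which encodes the histidine-rich calcium-binding protein, had 9498 counts in FLExDUX4 and 15461 in WT, or 732 and 833 CPM, a log2 ratio of -0.19 (interval -0.22 to -0.15). Srl, which encodes sarcalumenin, a partner of the calcium pump, had 10805 and 14963 counts, or 833 and 806 CPM, a ratio of 0.05 (interval 0.01 to 0.08). Hrc was thus the more abundant of the pair in WT and the less abundant in FLExDUX4.

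Calcium is pumped back by the SERCA pumps. Atp2a1 (chromosome 7, 126445858 to 126463108), the pump of fast fibers, had the highest level of the 33 genes, with 105484 counts in FLExDUX4 and 153070 in WT, or 8129.9 and 8248 CPM. Its log2 ratio was -0.02 (interval -0.03 to -0.01). Atp2a2, the pump of slow fibers and heart, had 1742 and 2368 counts, or 134 and 128 CPM, and a ratio of 0.07 (interval -0.02 to 0.16). Atp2a2 took 1.62% of the counts of the 3 SERCA genes in FLExDUX4 (interval 1.55 to 1.70) and 1.52% in WT (interval 1.46 to 1.59). The fast pump thus made up over 98% of pump transcripts in both genotypes, and the counting intervals of the slow pump's share overlap. Atp2a3, the pump of non-muscle cells, had 51 and 38 counts and a ratio of 0.94 (interval 0.31 to 1.59).

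Sln (chromosome 9, 53850164 to 53854560) encodes sarcolipin, a micropeptide of the sarcoplasmic reticulum that binds the SERCA pump and lowers its yield of transported calcium. It had 41 counts in FLExDUX4 and 29 in WT, or 3.16 and 1.56 CPM, a log2 ratio of 1.01 with a wide interval of 0.29 to 1.75. There was one count of Sln for 2573 counts of Atp2a1 in FLExDUX4 (interval 1896 to 3585) and for 5278 in WT (interval 3675 to 7882). The coding sequences of sarcolipin and of 3 related micropeptide regulators are given because they show how short these products are, with 96, 159, 141 and 198 bases from the start to the stop codon. Start and stop codons are in capitals, the letters run 5′ to 3′ on the coding strand and they are taken from GENCODE M21 on GRCm38. The encoded peptides hold 31, 52, 46 and 65 amino acids.
Sln: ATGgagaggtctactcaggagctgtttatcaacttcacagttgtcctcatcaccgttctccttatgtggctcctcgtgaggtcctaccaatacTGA
Pln: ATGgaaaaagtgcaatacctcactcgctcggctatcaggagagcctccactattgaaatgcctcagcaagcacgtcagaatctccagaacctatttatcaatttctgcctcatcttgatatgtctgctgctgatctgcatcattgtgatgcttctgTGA
Mrln: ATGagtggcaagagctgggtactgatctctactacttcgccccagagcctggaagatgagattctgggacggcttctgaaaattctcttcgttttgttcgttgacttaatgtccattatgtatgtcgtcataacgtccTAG
1810037I17Rik: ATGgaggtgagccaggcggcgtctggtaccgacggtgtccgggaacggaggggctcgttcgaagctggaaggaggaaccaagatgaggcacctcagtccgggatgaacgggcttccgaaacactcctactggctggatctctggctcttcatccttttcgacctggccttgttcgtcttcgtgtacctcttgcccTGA

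Mrln and 1810037I17Rik had the highest levels of the micropeptide genes in both genotypes. Mrln encodes myoregulin, the inhibitor of the fast pump in adult muscle, and had 1443 counts in FLExDUX4 and 1795 in WT, a log2 ratio of 0.20 (interval 0.10 to 0.30). It took 79.6% of the counts of the micropeptide genes in FLExDUX4 (interval 77.7 to 81.5) and 78.1% in WT (interval 76.4 to 79.8). The gene 1810037I17Rik, listed by RefSeq also as Aln, had 264 and 345 counts and a ratio of 0.13 (interval -0.11 to 0.37). Pln, which encodes phospholamban, the inhibitor of the slow and cardiac pump, had 35 and 27 counts and a ratio of 0.88 (interval 0.12 to 1.67). The 3′ end of Pln lies within Cep85l on the other strand, which had 1741 and 972 counts and a ratio of 1.36 (interval 1.24 to 1.47), and whether reads were counted by strand is not given in the sources used here. The part of Cep85l in the ratio of Pln was not tested. Gm34302, listed by RefSeq as Strit1 or DWORF, a micropeptide that activates the pump, had 29 and 102 counts and a ratio of -1.28 (interval -1.95 to -0.69). Sln took 2.26% of the counts of these 5 genes in FLExDUX4 (interval 1.63 to 3.06) and 1.26% in WT (interval 0.85 to 1.81), and these intervals overlap.

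Parvalbumin, encoded by Pvalb, is the soluble calcium buffer of fast fibers and speeds their relaxation. Pvalb had 104162 counts in FLExDUX4 and 150620 in WT, or 8028 and 8116 CPM, a log2 ratio of -0.02 (interval -0.03 to -0.0043). Its level was almost equal to that of Atp2a1 in both genotypes. Calm2 and Calm3 both encode calmodulin, the calcium sensor that binds the release channel and activates calmodulin kinase II, and their protein is the same. Calm2 had 2690 and 4240 counts, or 207 and 228 CPM, with a ratio of -0.14 (interval -0.21 to -0.07). Calm3 had 1639 and 2543 counts, or 126 and 137 CPM, with a ratio of -0.12 (interval -0.21 to -0.03).

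Because Calm2 and Calm3 encode the same protein, their first 120 coding bases are shown to make plain how their transcripts can still be told apart. Capitals mark the positions at which the pair differs.
Calm2: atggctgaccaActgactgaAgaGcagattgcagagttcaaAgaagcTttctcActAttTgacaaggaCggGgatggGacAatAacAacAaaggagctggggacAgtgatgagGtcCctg
Calm3: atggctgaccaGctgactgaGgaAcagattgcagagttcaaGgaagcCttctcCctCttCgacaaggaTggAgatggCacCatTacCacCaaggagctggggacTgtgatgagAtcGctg

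In these 120 bases 18 positions differ, all 18 at the last base of a codon, and over the 450 coding bases 78 positions differ, 74 of them at the last base of a codon. At the 3′ ends, which the assay reads, Calm2 and Calm3 shared no run of more than 15 bases over the last 500 bases of the transcript. The ratios of the pair were close to each other, and both counting intervals lay below 0.

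Calmodulin kinase II decodes calcium transients and acts on the release channel and the pump. Its 4 genes had a median log2 ratio of -0.14, the lowest of the 8 roles. Camk2a had 3225 counts in FLExDUX4 and 4834 in WT, or 249 and 260.5 CPM, and a ratio of -0.07 (interval -0.13 to -0.0029). Camk2b had 1137 and 1884 counts, or 87.6 and 101.5 CPM, and a ratio of -0.21 (interval -0.32 to -0.11). Camk2g had 1044 and 1746 counts, or 80.5 and 94.1 CPM, and a ratio of -0.23 (interval -0.34 to -0.11). Camk2d, the main form in heart, had 480 and 685 counts, or 37.0 and 36.9 CPM, and a ratio of 0.0038 (interval -0.17 to 0.17). The order of the 4 genes by level was the same in both genotypes. Camk2a took 54.8% of the counts of the 4 genes in FLExDUX4 (interval 53.5 to 56.1) and 52.8% in WT (interval 51.8 to 53.9). For each of the 4 genes the 2 intervals overlap. The counts are those of whole genes, and the products of each gene were not separated.

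**Figure D3:**
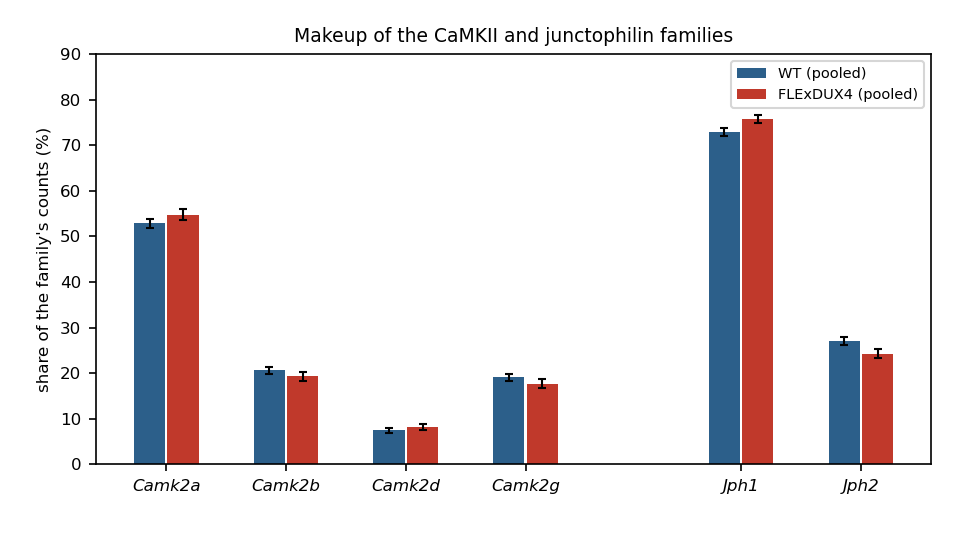
Share of each gene in the counts of its family (percent, from 0) in the pooled WT and pooled FLExDUX4 libraries, with 95% Clopper-Pearson intervals that cover counting error only. The shares keep their order in the calmodulin kinase II and the junctophilin genes, and the intervals of the genotypes are apart for Jph1 and Jph2 and overlap for the 4 kinase genes.

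Store-operated entry refills the sarcoplasmic reticulum from outside the cell. Stim1, the calcium sensor of the store, had 2759 counts in FLExDUX4 and 4196 in WT, or 213 and 226 CPM, a log2 ratio of -0.09 (interval -0.16 to -0.02). Orai1 (chromosome 5, 123015074 to 123030456), the channel it opens, had 364 and 411 counts, or 28.1 and 22.1 CPM. For Orai1 the ratio of 0.34 (interval 0.13 to 0.55), or 1.27-fold, was the highest after that of Sln. Sensor and channel thus pointed in opposite directions, and Stim1 per Orai1 was 7.58 in FLExDUX4 (interval 6.79 to 8.48) and 10.2 in WT (interval 9.22 to 11.3). Of their relatives, Stim2 had 510 and 786 counts and a ratio of -0.11 (interval -0.27 to 0.05). Mcu, the pore of the mitochondrial calcium uniporter, had 681 and 1153 counts, or 52.5 and 62.1 CPM. Its ratio of -0.24 (interval -0.38 to -0.11) was the lowest after that of Ryr3.

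Counting intervals that excluded 0 were common and mostly on one side. Among the 33 genes, 18 (54.5%) had an interval below 0, against 20.6% of all genes compared, and 3 (9.09%), namely Srl, Orai1 and Sln, had one above 0, against 20.5%. Upper-quartile scaling gave 19 below 0 and 2 above, against 21.9% and 19.3% of all genes. Scaling to gene totals gave 20 and 2, against 23.1% and 18.4%. Under these 2 scalings 2 and 3 of the 33 ratios changed sign. How many intervals exclude 0 depends on the counts, and 28 of the 33 genes had at least 1000 counts in all. Of these 28, 17 (60.7%) had an interval below 0 and 1 (3.57%) above, while among the 2727 genes of that depth the shares were 24.8% and 24.2%. The sizes were small, and the median log2 ratio of the 28 genes was -0.07 and the median size without sign 0.07, against 0.0011 and 0.11 for the 2727 genes. None of the 28 was past 1.5-fold, a size reached by 34 of the 2727. Scaling to spike-in counts instead shifted every ratio by -0.28, so that the median of all genes moved to -0.28 and that of the 33 genes to -0.34. Over all genes, 5.26% were then called higher and 20.0% lower. The intervals of 30 of the 33 genes then lay below 0, against 47.1% of all genes, and that of 1, Sln, above 0, against 7.59%. Orai1 was at 0.07 (interval -0.14 to 0.27) and Sln at 0.73 (interval 0.02 to 1.48) on this scale. The ratios of Srl, Jph1, Jsrp1, Sypl2, Atp2a2, Dysf, Stac3 and Camk2d, positive under TMM, were then below 0.

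**Figure D4:**
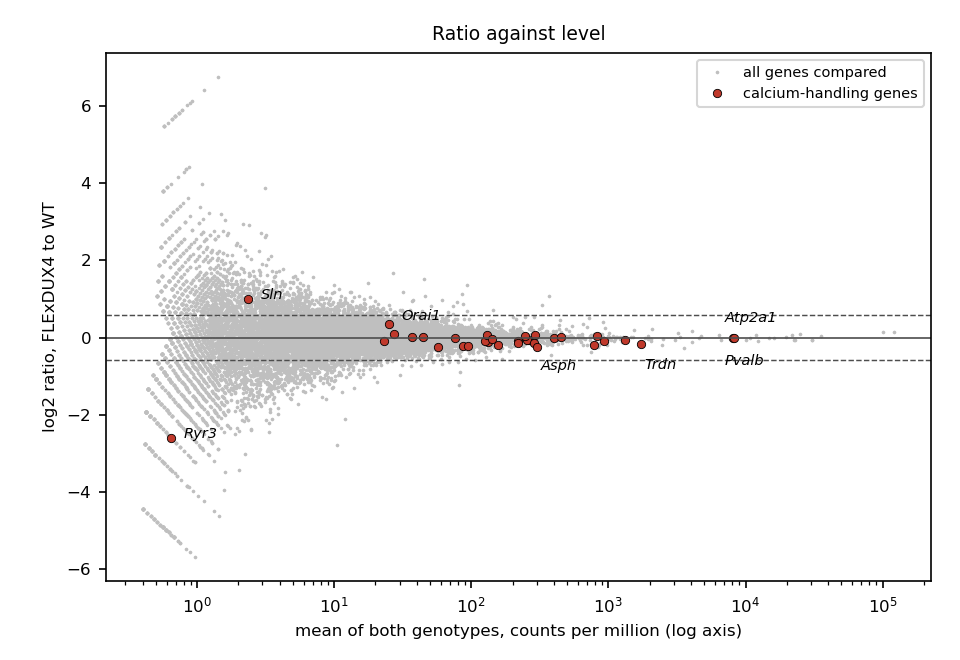
Log2 ratio of FLExDUX4 to WT (y axis) against the mean level of both genotypes in CPM (log axis) for all 13396 genes compared (gray) and the 33 calcium-handling genes (red). Dashed lines mark 1.5-fold. The gray cloud narrows as the level rises, and most of the 33 genes lie at high levels and just below the line at 0, with Sln and Ryr3 in the wide part of the cloud.

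Several of these genes are used differently by fast and slow fibers, so the fiber markers are given beside them. The 12 fast-fiber markers had log2 ratios from -0.19 to 0.12 with a median of -0.03, and the 9 slow-fiber markers from -0.25 to 0.20 with a median of -0.11, and none was past 1.5-fold. Counting intervals lay below 0 for 9 of the 12 fast and 5 of the 9 slow markers, and above 0 for 2 and 1. Over all genes compared, the shares were 20.6% below and 20.5% above. The summed level was 114890 CPM in FLExDUX4 and 117704 in WT for the fast markers, and 1012 and 1093 CPM for the slow markers. Of the myosin heavy chains, Myh4 (type IIb) had a ratio of -0.07 (interval -0.07 to -0.06), Myh1 (type IIx) of -0.19 (interval -0.21 to -0.17), Myh2 (type IIa) of -0.04 (interval -0.07 to -0.01) and Myh7 (slow) of -0.04 (interval -0.14 to 0.06). Actn3, an actin-crosslinking protein of fast fibers, had a ratio of 0.12 (interval 0.11 to 0.14). The part of fiber type in the ratios of the calcium-handling genes was not tested.

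Other cells in the muscle also express calcium channels and Orai1. Of 6 smooth-muscle markers 5 had ratios above 0, and 1, Cnn1 (1.80, interval 0.83 to 2.94), was past 1.5-fold, while their summed level was 140.1 CPM in FLExDUX4 and 137 in WT. Of 5 endothelial markers 4 were below 0, with a summed level of 161 and 188 CPM, and Tek (-0.63, interval -1.04 to -0.25) was past 1.5-fold. Of 6 adipocyte markers 4 were above 0 and 2 below, and Adipoq (0.70, interval 0.46 to 0.95) and Cfd (0.88, interval 0.76 to 0.99) were past 1.5-fold. Their summed level was 159 and 95.6 CPM, and Cfd alone gave 1468 of the 2060 counts in FLExDUX4 and 1144 of the 1774 in WT. The summed levels were 59.5 and 60.3 CPM for 5 leukocyte markers, 955 and 927 CPM for 4 fibroblast markers, and 149 and 141 CPM for 5 Schwann-cell markers. For 6 satellite and regenerating-cell markers they were 26.2 and 28.6 CPM, with Myog (1.15, interval 0.49 to 1.85) and Pax7 (-0.82, interval -1.44 to -0.25) past 1.5-fold. No marker was at 0 counts in either genotype. The part of these cells in the ratios of Orai1, Sln and Ryr3 was not tested.

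Of 79 further genes of calcium handling, 64 had enough counts to be compared. Of these, 8 (12.5%) were called higher in FLExDUX4 and 4 (6.25%) lower, against 9.93% and 10.2% of all genes compared, and their median log2 ratio was -0.04. All 12 had few counts, between 16 and 139 in all, and some passed the filter only through the genotype in which they are high. With at least 10 counts in each group 6 were called higher and 2 lower, against 8.44% and 7.25% of all genes. None of the 25 genes of the lists with at least 1000 counts was called, and their median of -0.07 was that of the 33 genes.

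Of these 12, 6 encode subunits of voltage-gated calcium channels, out of 10 such genes compared. The 4 called higher were 40% of the 10 and the 2 called lower 20%, against 9.93% and 10.2% of all genes, while among all genes under 100 counts 38.0% were called in either direction. The other 4 genes were not called. Cacna2d2, Cacna1d and Cacna1h passed the filter on low counts only through the genotype in which they are high. Their calls, which include the 2 lower ones, are therefore no support for a difference. Cacna1c, the pore of the cardiac and smooth-muscle L-type channel, had 54 counts in FLExDUX4 and 28 in WT, a log2 ratio of 1.45 (interval 0.78 to 2.18). The auxiliary subunits Cacna2d2, with 21 and 4 counts, Cacna2d4, with 50 and 29, and Cacng7, with 79 and 60, had ratios of 2.77 (interval 1.34 to 4.91), 1.29 (interval 0.61 to 2.02) and 0.91 (interval 0.41 to 1.42). Lower were Cacna1d, with 1 and 15 counts and a ratio of -2.85 (interval -8.79 to -0.69), and the T-type channel Cacna1h, with 8 and 30 counts and a ratio of -1.33 (interval -2.73 to -0.23). The highest level among these 6 was 6.09 CPM, that of Cacng7 in FLExDUX4, against 273 CPM for Cacna1s. Outside the channels, Homer3, a scaffold that binds ryanodine and inositol trisphosphate receptors, had 15 and 75 counts and a ratio of -1.77 (interval -2.71 to -0.99). The values of Ryr2, Atp2a3, Pln and Gm34302 are given with their families.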

How the data were processed

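QuantSeq 3′ mRNA libraries from muscle of 3 FLExDUX4 and 3 WT mice were sequenced. The authors trimmed reads with Cutadapt 1.16 and aligned them with STAR 2.5.3a to GRCm38 joined to ERCC and SIRV spike-in sequences, and featureCounts 1.6.2 is named in the submitters' processing notes. The deposited values used here are counts per gene pooled over each genotype, without normalization. The table also holds 6 columns of single libraries whose names match no label, which were not used, and the authors' own fold changes, errors and p-values by DESeq2, which were left aside too. The planned edgeR quasi-likelihood test needs single libraries and was therefore replaced, as the plan allowed, by the ratio of the totals. TMM factors came from edgeR 4.0.16, run in R 4.3.3 on the 13396 of 52550 mouse genes that filterByExpr passed. The 99 spike-ins stayed out of the totals, and ratios carry a pseudocount of 0.5. Intervals at 95% (Clopper-Pearson, scipy 1.17.1 in Python 3.11.15) cover counting error only, and reads without molecular identifiers are not independent molecules. The scripts were tested on simulated counts. The genes named are the 33, the genes of the wider calcium lists past 1.5-fold (the values of 1 are not reported here), Ryr2, Pln and Stim2, the fiber markers Myh7, Myh2, Myh1, Myh4 and Actn3, and markers past 1.5-fold. Mrln, 1810037I17Rik, Ckm, Aven and Cep85l were added after their values were seen. Members and lists were chosen with earlier results of these data known. Coordinates and coding sequences are from GENCODE M21, and 32 of the 33 gene starts equal the deposited ones. Another gene overlaps the last 500 bases on the other strand for 5 of the 33, namely Asph, Atp2a1, Cacna1s, Jph1 and Ryr3.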

Additional observations from a re-analysis of the deposited data

How the results depend on the processing

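No paired analysis was possible because only totals per genotype could be tied to labels. DESeq2 tests and leaving out each replicate were not run, since both need single libraries. Under TMM, DESeq2 size factors, upper quartile, gene totals, spike-in totals, no filter and a pseudocount of 2, Sln was the only one of the 33 genes called higher and Ryr3 the only one called lower. Under these settings 5.26% to 9.94% of all genes were called higher and 9.53% to 20.0% lower. With at least 10 counts in each group Ryr3 could not be compared and 0 were called lower, against 7.25% of all genes. With the limit on the fold lowered to 0.32 on the log2 scale 2 were called higher, Sln and Orai1, against 15.0% of all genes. Of the wider calcium lists, 8 were called lower with spike-in totals and 8 at that lower limit, against 20.0% and 15.1% of all genes. With at least 10 counts in each group 6 were called higher and 2 lower, against 8.44% and 7.25%. At 2-fold 4 were called higher, against 5.18%. The median of the 33 genes was -0.34 with spike-in totals. The median of the fast-fiber markers was -0.058 with gene totals and -0.30 with spike-in totals, and that of the slow-fiber markers was -0.38 with spike-in totals. Scaling moves every gene alike; why the spike-ins give another scale was not tested. A pseudocount of 2 moved the ratio of Ryr3 by 0.58.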
